A study of Homo sapiens with 3 samples.

Results

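ESRP2 siRNA was compared with control siRNA in HEK293T, a line derived from human embryonic kidney that carries the SV40 large T antigen. The comparison holds 1 polyA RNA library a side, so no difference below has a replicate check and no p-value is given. Its members are the 11975 of 23284 genes that had status OK in all 3 libraries of the series and a mean FPKM (sequenced fragments scaled to transcript length and library size) over them of 1 or more. At that limit, RCN3 was kept with 0.327, 1.31 and 1.37 FPKM in the control, ESRP2 siRNA and Arkadia siRNA libraries, and HDX was left out with 0.898, 1.43 and 0.665 FPKM. A library from cells given Arkadia siRNA (Arkadia is the ubiquitin ligase RNF111) is the other library of the series and is used here as a further reference. All 3 cultures were HEK293T transfected with siRNA in suspension, harvested 48 h after seeding and not treated with TGF-beta. No source used here names the siRNA sequences or how many were pooled, and each arm stands for 1 culture.

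ESRP2 and its paralogue ESRP1 are epithelial RNA-binding proteins that bind GU-rich RNA and set the inclusion of alternative exons. They are known for the switch between the epithelial and mesenchymal forms of FGFR2, CD44, CTNND1 and ENAH. As a rule, binding in the intron downstream of an exon favours its inclusion, and binding upstream of it or within it favours skipping. The readout closest to this function is therefore the mix of isoforms of a gene, and the gene's total level is a separate measurement.

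The control and ESRP2 siRNA libraries were of similar depth. In genes with 1 isoform, low FPKM values fell on whole multiples of what 1 read is worth, within 0.05 reads for 99.5% of 2241 such genes in the control library, 99.5% of 2046 with ESRP2 siRNA and 99.4% of 2328 with Arkadia siRNA. On the authors' scale, 1 read on a transcript of 1 kb was worth 0.0773, 0.0745 and 0.103 FPKM in that order, so the Arkadia siRNA library was the shallowest. Of 9 genes typical of HEK293 cells, 8 had a mean FPKM of at least 1, and their summed FPKM was 619 in the control, 551 with ESRP2 siRNA and 672 with Arkadia siRNA. VIM stood at 389, 301 and 410 FPKM and KRT18 at 104, 115 and 131 FPKM. Markers of fibroblasts and leukocytes reached that mean in 1 of 8 and 1 of 6 genes, and those of endothelium, hepatocytes, erythroid cells and squamous epithelium in 0. Each of these types summed to at most 4.43 FPKM in any library, and THY1, a fibroblast marker, was listed at 0 in each.

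ESRP2 was lower in the library named for it. Its FPKM was 14.8 in the control library, 4.27 with ESRP2 siRNA and 21.2 with Arkadia siRNA, from about 729, 219 and 790 reads. The level with ESRP2 siRNA was 71.1% below the control, a 3.45-fold difference. The authors' interval ran from 3.34 to 26.3 FPKM in the control and from 0.0878 to 9.33 FPKM with ESRP2 siRNA, so the targeted gene itself did not reach intervals apart. The table places it in a locus at chr16:68119269-68270136 (hg19), which covers more than this gene. ESRP1 was at 0.116 FPKM in the control, listed at 0 with ESRP2 siRNA and at 0.123 FPKM with Arkadia siRNA, so ESRP2 was the paralogue with a measurable transcript in these cells. RNF111, the target of the other siRNA, was at 6.38 FPKM in the control and 7.65 FPKM with ESRP2 siRNA. In bulk RNA, fewer cells that express a gene and less RNA per cell cannot be told apart.

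Across the members, 676 (5.65%) were at least 2-fold higher with ESRP2 siRNA and 324 (2.71%) at least 2-fold lower, on log2 of FPKM plus 1. The median log2 ratio of all members was 0.12. The middle 50% of members lay between -0.29 and 0.49. The split of calls depended on scaling: 67.6% of them were higher as deposited, 47.9% after rescaling by the median of ratios, 41.6% after rescaling to the upper quartile and 57.6% after the GC trend described below was removed. The 105 members whose longest isoform is under 300 nt, 59 of them small nucleolar or Cajal body RNAs and 38 microRNA genes by symbol, gave 29 of the higher and 37 of the lower calls, and 0 of them had intervals apart. With the added demand that the authors' intervals of the 2 libraries do not overlap, 102 genes (0.852%) were higher and 46 (0.384%) lower; "rose" and "fell" are kept for these. In 3 of the 148 one library has both bounds at 0. Of the 148, 55 (0.459%) higher and 25 (0.209%) lower genes were also 2-fold and interval-apart from the Arkadia siRNA library in the same direction. For 37 of the 102 risen genes the Arkadia library was at or below the control, and for the other 65 it lay between the control and ESRP2 siRNA.

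**Figure D1:**
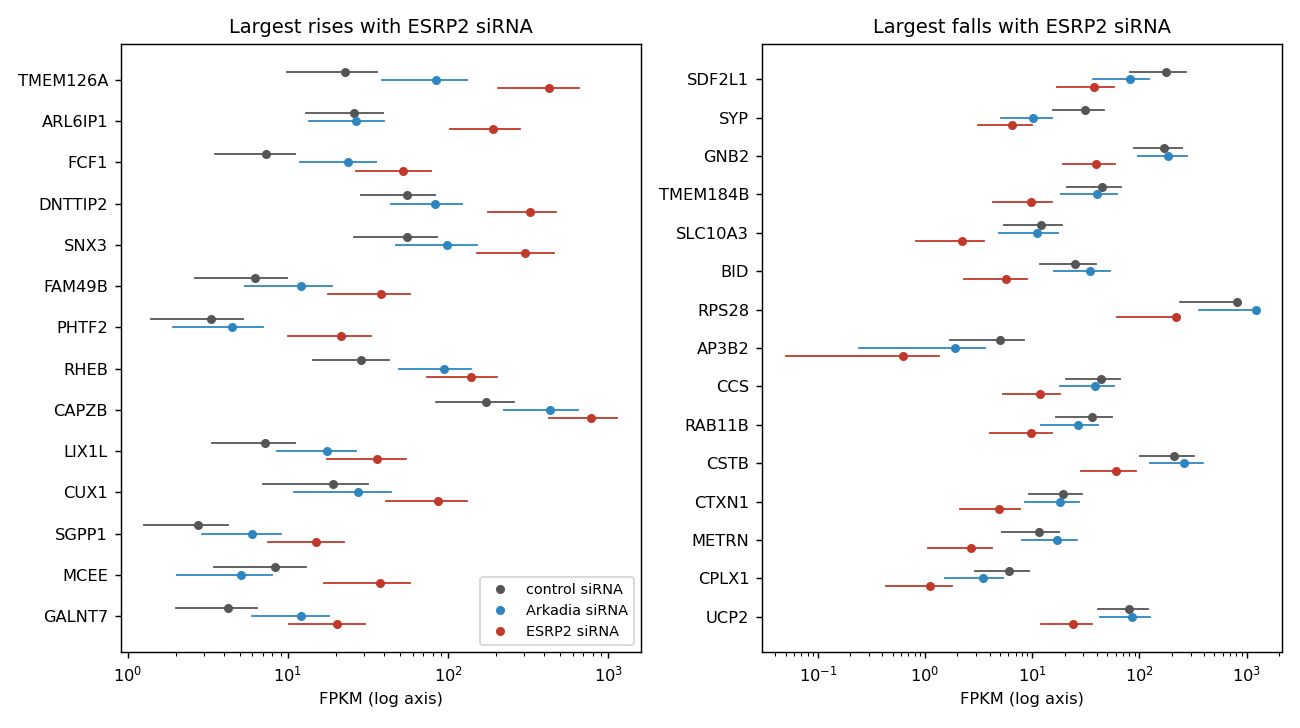
FPKM on a log axis of the largest rises (left) and falls (right) among members of at least 5 FPKM and 300 nt with intervals apart. Points are the 3 libraries and lines the authors' lower and upper bounds (the lower bound of AP3B2 with ESRP2 siRNA is 0 and its line is cut at the axis). TMEM126A stands at 429 FPKM with ESRP2 siRNA against 22.8 in the control, and the Arkadia siRNA points of RHEB and GALNT7 lie close to the ESRP2 siRNA points.

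The largest rise was in TMEM126A, a mitochondrial inner membrane protein needed for complex I assembly. It was at 22.8 FPKM in the control (interval 9.90 to 35.7), 429 FPKM with ESRP2 siRNA (204 to 654) and 84.4 FPKM with Arkadia siRNA (38.4 to 130). The ESRP2 siRNA library stood 18.8-fold above the control, with the Arkadia library between them and apart from both. The gene lies at chr11:85358963-85367597 (hg19). Its 2 isoforms did not rise alike: the 725-nt form went from 5.92 to 322 FPKM and the 818-nt form from 16.9 to 107 FPKM. The short form thus made up 25.96% of the gene's FPKM in the control, 75.01% with ESRP2 siRNA and 17.7% with Arkadia siRNA. The longer form carries a 93-nt exon that the shorter lacks, and its intervals overlapped between the 2 libraries.

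Several risen genes act at membranes. ARL6IP1, an ER-shaping protein, was at 25.98 FPKM in the control (693 reads), 191 FPKM with ESRP2 siRNA (5291 reads) and 26.8 FPKM with Arkadia siRNA, so the ESRP2 siRNA library alone stood apart. SNX3, a sorting nexin of the retromer pathway, was at 55.4, 304 and 99.0 FPKM in the control, ESRP2 siRNA and Arkadia siRNA libraries. VPS4B, an ATPase that takes ESCRT-III apart, was at 3.58, 13.2 and 8.53 FPKM in the same order. SAR1B, the small GTPase of COPII vesicles, was at 4.59, 18.1 and 4.95 FPKM. SGPP1, a sphingosine-1-phosphate phosphatase, was at 2.74, 15.01 and 5.98 FPKM, and GALNT7, a transferase of mucin-type O-glycosylation, at 4.20, 20.1 and 12.001 FPKM. For GALNT7 the Arkadia siRNA library was close to ESRP2 siRNA, with overlapping intervals.

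Signalling and cytoskeletal genes were also among the 15 largest rises. RHEB, the GTPase that activates mTORC1, was at 28.6 FPKM in the control, 139 FPKM with ESRP2 siRNA and 94.4 FPKM with Arkadia siRNA, and the ESRP2 and Arkadia siRNA libraries overlapped. CAPZB, the beta subunit of the capping protein of actin filaments, was at 172, 785 and 434 FPKM, again with an overlap of those 2 libraries. Practically all of CAPZB's FPKM, 99.5% in the control and 99.9% with ESRP2 siRNA, was given to a single isoform. FAM49B, which binds RAC1, was at 6.22, 37.98 and 12.1 FPKM. CUX1, a homeodomain protein, was at 19.2, 86.2 and 27.6 FPKM and changed its isoform mix as described below. PHTF2 was at 3.29, 21.6 and 4.44 FPKM, and LIX1L at 7.22, 35.9 and 17.5 FPKM.

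Nucleolar and metabolic genes were also among the 15 largest rises. FCF1, a factor of the small-subunit processome, was at 7.33, 52.3 and 23.8 FPKM in the control, ESRP2 siRNA and Arkadia siRNA libraries, from about 209 and 1547 reads in the first pair. DNTTIP2, a nucleolar protein, was at 55.6, 325 and 83.0 FPKM. MCEE, methylmalonyl-CoA epimerase, was at 8.32, 37.4 and 5.06 FPKM, with the Arkadia library below the control. Abundant transcripts rose as well. LDHB, a subunit of lactate dehydrogenase, was at 451, 1694 and 965 FPKM, and FTL, the ferritin light chain, at 710, 2201 and 1358 FPKM. RPS27A, which encodes ubiquitin fused to a ribosomal protein, was at 548, 1950 and 619 FPKM; it was named after its values were seen, as was RPL39 at 1948, 5544 and 2044 FPKM.

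The largest falls included genes of the secretory and synaptic pathways. SDF2L1, an ER protein of the chaperone network, was at 177 FPKM in the control (interval 82.2 to 271), 37.4 FPKM with ESRP2 siRNA (16.9 to 57.8) and 80.8 FPKM with Arkadia siRNA, which lay between. SYP, the synaptic vesicle protein synaptophysin, was at 31.2, 6.51 and 10.3 FPKM, and both knockdown libraries were low. AP3B2, the neuronal beta subunit of the AP-3 adaptor, was at 5.03, 0.617 and 1.90 FPKM, and CPLX1, the SNARE regulator complexin, at 6.10, 1.11 and 3.44 FPKM. CTXN1, a neuronal membrane protein, was at 19.3, 4.91 and 18.1 FPKM, so the Arkadia library resembled the control. RAB11B, a GTPase of recycling endosomes, was at 36.2, 9.71 and 26.6 FPKM. The reads behind the lowest of these were few: about 29 for AP3B2 and 29 for CPLX1 with ESRP2 siRNA, against 228 and 153 in the control.

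GNB2, a beta subunit of heterotrimeric G proteins, was at 169 FPKM in the control, 39.1 FPKM with ESRP2 siRNA and 186 FPKM with Arkadia siRNA, a 4.32-fold fall with the ESRP2 siRNA library apart from both others. BID, which links death receptors to mitochondria, was at 25.3, 5.63 and 34.5 FPKM. UCP2, a carrier of the mitochondrial inner membrane, was at 80.4, 24.1 and 84.5 FPKM. CSTB, an inhibitor of cathepsins, was at 212, 60.9 and 260 FPKM. CCS, the copper chaperone of SOD1, was at 43.4, 11.7 and 38.2 FPKM. METRN, a secreted neurotrophic factor, was at 11.5, 2.67 and 17.2 FPKM. In each of these except CCS the Arkadia siRNA value was above the control, in the direction opposite to the fall.

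The remaining falls were TMEM184B at 44.4, 9.77 and 40.1 FPKM, SLC10A3 at 12.1, 2.19 and 11.05 FPKM, and RPS28. RPS28, a protein of the small ribosomal subunit, was at 821 FPKM in the control (about 1924 reads), 218 FPKM with ESRP2 siRNA (about 530 reads) and 1232 FPKM with Arkadia siRNA. Its intervals are uneven, from 237 to 875 FPKM in the control and 61.5 to 236 FPKM with ESRP2 siRNA, and they separate by a narrow margin. RPS28 and RAB11B lie 51980 nt apart on chromosome 19. Taken in order along each chromosome, 8 pairs of consecutive called genes lay within 100 kb, and genes not called may lie between them. In 7 of the pairs both moved the same way, among them DNTTIP2 with GCLM on chromosome 1 and RG9MTD1 with PCNP on chromosome 3. HIST1H2AD is in the pair that moved in opposite directions and also in a pair that moved the same way. Of the 148 called genes 102 rose, and the number of such pairs among all members was not counted. RG9MTD1, like PCNP named after its values were seen, was at 61.05 FPKM in the control, 211 FPKM with ESRP2 siRNA and 26.8 FPKM with Arkadia siRNA, and PCNP at 47.3, 153 and 29.9 FPKM.

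The differences ran with base composition. The genes that rose had a median transcript GC content of 40.8% and those that fell 62.2%, against 49.3% for all members. In the decile of members lowest in GC (median 37.4%), 194 of 1186 genes were 2-fold higher and 10 were 2-fold lower. In the decile highest in GC (median 64.4%), the counts were 10 and 135 of 1186. The chromosome medians followed the same order: the lowest median log2 ratio was on chromosome 19, -0.30 over 795 members with a median GC of 60.1%, and the highest on chromosome 13, 0.38 over 226 members with a median GC of 43.2%. After the median of each GC decile was subtracted, those chromosome medians were -0.06 and 0.00. Spearman's rho between GC content and log2 ratio was -0.63 across 11857 members, a correlation over genes of one pair of libraries, which are not independent. How far base composition as such contributed to any one difference was not tested. All 30 of the largest rises and falls stayed at least 2-fold in their direction after the subtraction. Their size made this certain, since they were picked as the largest ratios and the decile medians lie between -0.49 and 0.60. Of the 102 risen genes 81 did so, and of the 46 fallen genes 31.

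**Figure D2:**
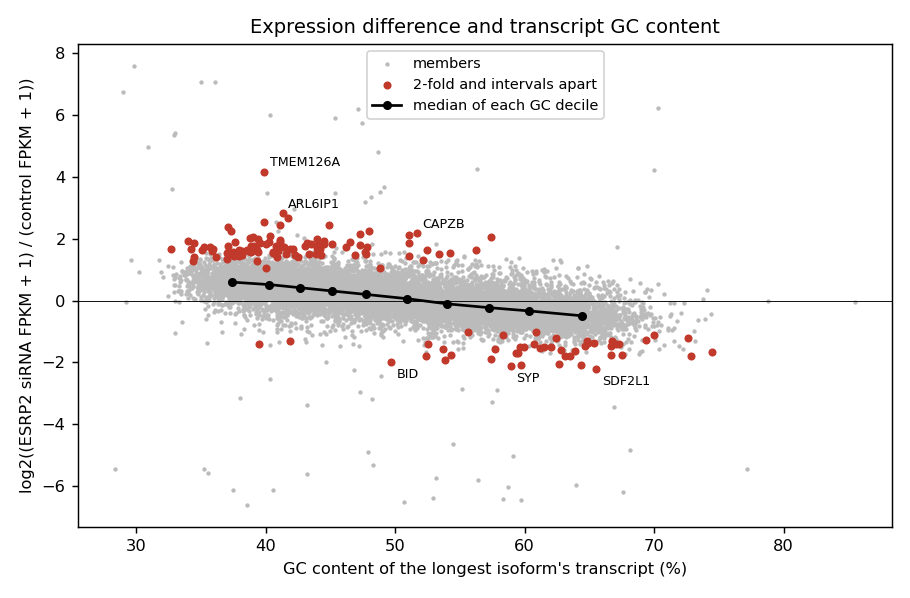
Each grey point is a member, by GC content of its longest isoform's transcript (percent) and log2 ratio of FPKM plus 1, ESRP2 siRNA over control. Red points are the genes that are 2-fold different with intervals apart, and black points are medians of the GC deciles, which go from 0.60 at 37.4% GC to -0.49 at 64.4% GC.

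Gene lists by function were set beside the shares of all members past 1.5-fold, 20% higher and 11.6% lower. Ribosome biogenesis had 25 higher and 3 lower of 74 members, a median log2 ratio of 0.41 and a median GC of 46.5%. After the GC subtraction its median was 0.16, with 6 higher and 2 lower. Its 4 largest differences were FCF1, DNTTIP2, WDR46 (35.7 to 79.3 FPKM) and RRS1 (29.7 to 64.3 FPKM), and the first pair rose. The list of cohesin, condensin and SMC proteins, which hold and fold chromosomes, had 12 higher and 1 lower of 32, with a median of 0.48 that became 0.07 after the subtraction. Its median GC of 41.5% was the lowest of the 39 lists. SMC4 was at 48.7 FPKM in the control and 112 FPKM with ESRP2 siRNA, and NCAPG at 24.1 and 53.3 FPKM, with overlapping intervals.

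Before the GC subtraction, endosomal sorting and autophagy lay above the median of all members, and lysosomal hydrolases and cystatins below it. Endosomal sorting had 16 higher and 4 lower of 49, with SNX3 and VPS4B risen. Its median of 0.36 became 0.11 after the GC subtraction, with 6 higher and 3 lower. Autophagy had 12 higher and 2 lower of 40, and its median of 0.39 became 0.16, with 7 higher and 1 lower. In it TMEM41B, an ER scramblase, rose from 3.30 to 14.4 FPKM, and GABARAPL2, a protein coupled to autophagosome membranes, was at 134 and 368 FPKM with overlapping intervals. ATG4D, a protease of the same conjugation system, was lower at 34.1 and 10.2 FPKM. The lysosomal list had 10 higher and 7 lower of 56 and a median of 0.04, with CSTB fallen. After the GC subtraction it had 7 higher and 7 lower. Its median was then 0.07, above that of all members. The RAS-like GTPases and mTORC1 list had 14 higher and 4 lower of 40, and 6 higher and 1 lower after the GC subtraction, with a median of 0.26 before it and 0.24 after. Besides RHEB, RRAGD was at 10.1 and 25.9 FPKM.

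Lists of RNA handling moved unevenly. RNA exosome and deadenylation genes were higher in 13 and lower in 4 of 43, with EXOSC1 at 79.1 and 211 FPKM and LSM2 at 121 and 47.6 FPKM. After the GC subtraction 6 were higher and 4 lower. Among 22 nonsense-mediated decay genes 6 were higher and 2 lower, and 3 and 1 after the GC subtraction. SMG8, a subunit of the SMG1 kinase complex, rose from 18.8 to 67.6 FPKM (Arkadia siRNA 23.5) and PNRC2, a decapping co-factor, from 22.5 to 70.3 FPKM (Arkadia siRNA 30.3). UPF1, the central helicase of the pathway, was lower at 35.9 and 20.5 FPKM. The SR proteins, splicing factors with arginine-serine domains, had 2 higher and 3 lower of 21. SRSF9 was at 295, 115 and 395 FPKM in the control, ESRP2 siRNA and Arkadia siRNA libraries, and SRSF3 at 295, 552 and 261 FPKM. The SR list's median was 0.11 and became -0.29 after the GC subtraction, the lowest of the lists. Cleavage and polyadenylation had 4 higher and 0 lower of 22, among them CPSF2 at 22.2 and 51.8 FPKM. After the GC subtraction that list had 1 higher and 2 lower, and its median of 0.18 became -0.11.

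In the list of cell type splicing regulators, the median of 0.18 became -0.06 after the GC subtraction, which left 2 of 26 members higher and 2 lower. Before it, 4 were higher and 4 lower. Beside ESRP2 the lower ones were RBM10 at 37.1 and 20.5 FPKM, NOVA2 at 1.94 and 0.756 FPKM and RBFOX3 at 1.59 and 0.631 FPKM. The higher ones were PTBP2 at 7.02 and 18.01 FPKM, MBNL1 at 8.18 and 20.4 FPKM, MBNL2 at 2.29 and 5.11 FPKM and TIAL1 at 30.8 and 59.8 FPKM. PTBP2 and the MBNL proteins set alternative exons themselves. None of the 8 had intervals apart, and RBM10, NOVA2, RBFOX3 and MBNL2 were named after their values were seen.

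Lists that describe an epithelial or mesenchymal state had 0 genes that rose or fell with intervals apart. Of all members 0.852% rose and 0.384% fell, so lists of 29 and 22 members are too small to read this count. Of 29 epithelial junction genes that were members, 3 were higher and 2 lower, with a median log2 ratio of 0.13. With the GC trend subtracted, 2 were higher and 0 lower, and the median was -0.11. CLDN12 was at 8.23 and 18.2 FPKM, PRKCI at 11.9 and 26.9 FPKM, and LLGL2 at 18.2 and 9.84 FPKM. Of 22 mesenchymal genes 4 were higher and 4 lower, with a median of 0.00. These became 3 and 3, with a median of -0.09, once the GC trend was subtracted. TIMP1 was at 75.4 FPKM in the control, 37.8 FPKM with ESRP2 siRNA and 141 FPKM with Arkadia siRNA, and SNAI2 at 4.82, 8.55 and 3.93 FPKM. FGF signalling had 2 higher and 3 lower of 20, and 2 and 0 after the GC subtraction, where its median of 0.22 became -0.09. The TGF-beta and BMP list had 5 higher and 3 lower of 37, and 3 and 5 after the GC subtraction, where its median of 0.14 became -0.16. SMAD6, an inhibitory SMAD, was at 5.99, 1.35 and 7.44 FPKM. The innate RNA sensing and interferon list, which a transfected RNA could touch, had 1 higher and 2 lower of 23 and a median of 0.00. ISG15 was at 7.48, 4.16 and 5.52 FPKM.

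The list of neuronal and synaptic genes was the one with most falls: 5 of its 29 members fell and 0 rose, with 9 lower and 2 higher at 1.5-fold. Its median was -0.24, and -0.26 after the GC subtraction. SYP, AP3B2, CTXN1 and CPLX1, all among the 15 largest falls, led it. As the lists were written with earlier results of these data known, the rank of this list is a description and no test of it. Against the same control library, which both comparisons share, the Arkadia siRNA library had a median of -0.32 for this list. Tubulins and microtubule regulators had 10 lower and 7 higher of 41. STMN3 was at 37.9, 13.5 and 12.8 FPKM in the control, ESRP2 siRNA and Arkadia siRNA libraries, and the beta-tubulin TUBB3 at 14.7, 5.24 and 6.87 FPKM, so in both genes it was the control library that stood high. Complex I and its assembly factors went both ways, with 10 higher and 11 lower of 49. NDUFA5 was at 32.7 and 88.5 FPKM, while NDUFA13 was at 319 and 113 FPKM.

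**Figure D3:**
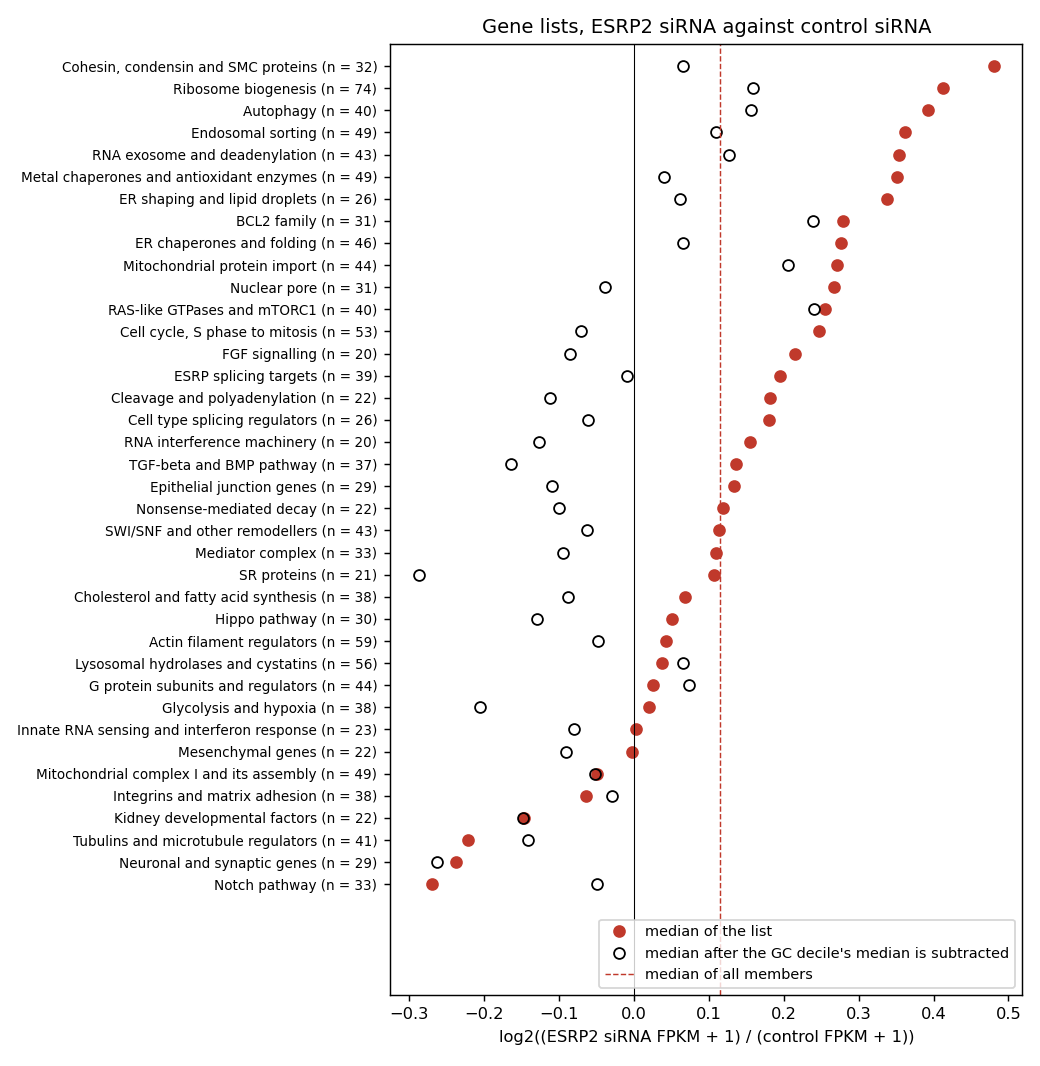
Median log2 ratio of FPKM plus 1, ESRP2 siRNA over control, for the gene lists (red) and the same after subtraction of the GC decile's median (open circles). The dashed line is the median of all members, 0.12. Of all 39 lists, 1 of which is not drawn, 22 lie above that line and 14 above the median of all members after the subtraction; the neuronal and synaptic list stays at -0.26 and the RAS-like GTPases and mTORC1 list at 0.24.

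Isoform usage was compared in the 3631 genes that had at least 2 isoforms, all of status OK, and a summed isoform FPKM of at least 5 in both libraries. The usage change is the part of a gene's isoform FPKM that sits on other isoforms, from 0 (same shares) to 1 (all changed). Its median was 0.09. It reached 0.25 in 730 genes (20.1%), of which 261 (7.19% of those entering) had at least 1 isoform with intervals apart. For isoforms near 0 the authors' bounds can be 0 and 0, and with such isoforms set aside 149 of the 261 remained. At the gene level 664 of the 730 differed by less than 2-fold (91.0%), near the 93.0% of all 3631 genes entering. The share changed was 27.8% where the lower of the summed FPKM values was 5 to 10 and 9.66% where it was 50 or more. The Arkadia siRNA library against the same control gave 17.4% of 3547 genes, and ESRP2 siRNA against Arkadia siRNA 26.3% of 3450, so a change of this size was also frequent between the control and the other knockdown. Of the 730 genes, 501 also differed by 0.25 or more from the Arkadia library, with 683 measured there.

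The isoform that gained the most share was usually the shorter. It was shorter than the one that lost most in 519 of the 730 genes and longer in 208. Among the 228 of them with just 2 isoforms it was shorter in 158 and longer in 69. Among all genes entering, whatever the size of the change, it was shorter in 2032 and longer in 1457. Start sites accounted for a part: of 1469 genes with isoforms from 2 or more start-site groups, 253 (17.2%) moved 0.25 or more of their FPKM between groups.

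The 12 largest changes among genes of at least 10 summed FPKM with an isoform interval-apart ran from 0.71 to 0.997. In 10 of them such an isoform has upper bounds above 0 in both libraries, the exceptions being PSEN2 and C11orf57. CRBN, the substrate receptor of a cullin ligase, had 99.96% of its FPKM on the longer of 2 isoforms in the control and 0.22% with ESRP2 siRNA, while its total went from 15.01 to 23.2 FPKM. The isoforms differ by 3 nt. With Arkadia siRNA the longer isoform held 99.6%. PSEN2, a catalytic subunit of gamma-secretase, also has isoforms 3 nt apart, and the longer held 88.8% in the control, 0.06% with ESRP2 siRNA and 53.1% with Arkadia siRNA. Reads that tell such pairs apart are those that cover a single short stretch. In the 360 genes whose exchanging isoforms differed by 10 nt or less, 15.6% changed, against 20.6% of the rest.

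In CAPN1, a calpain protease, the isoform that gained came from another start-site group and went from 0.03% to 80.4% of the gene's FPKM (Arkadia siRNA 51.7%). PPP2R2A, a regulatory subunit of protein phosphatase 2A, moved 76.8% of its FPKM to the isoform of another start site, against 5.47% with Arkadia siRNA, and TBC1D14 and ANKZF1 changed start-site group as well, by 0.71 and 0.78. NDUFS1, a core subunit of complex I, lost its main isoform from 90.04% to 5.92%, with 85.03% in the Arkadia library. CDK5RAP1, an enzyme of mitochondrial tRNA modification, had 10.7% of its FPKM on the isoform shorter by 148 nt in the control, 85.9% with ESRP2 siRNA and 29.1% with Arkadia siRNA. Its gaining isoform went from 3.06 to 67.7 FPKM. MAN2C1, C11orf57, ARHGAP8 and CUX1 had usage changes of 0.93, 0.75, 0.87 and 0.94.

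Of 40 genes listed as ESRP splicing targets, 39 were members and 26 entered the isoform comparison. In 11 of them (42.3%, beside 20.1% of all genes entering) the usage change was 0.25 or more. The gaining isoform was the shorter in 10 of the 11, and in 519 of all 730 changed genes. The share changed among all genes entering was 27.8% at a lower summed FPKM of 5 to 10 and 9.66% at 50 or more. TCF7L2, ARHGEF11, MBNL1, GIT2 and EXOC1 lay in the low range, DNM2 in the high one and the rest of the 11 between. Shares at matched level were not computed. Of these 11, SCRIB and MBNL1 had an isoform with intervals apart, and in 1 of them, MBNL1, its upper bounds are above 0 in both libraries. That MBNL1 isoform was listed at 0 in the control (upper bound 0.0321 FPKM). With ESRP2 siRNA it was at 4.07 FPKM (lower bound 0.0642 FPKM). The Arkadia siRNA library against the same control gave 7 of 25 and ESRP2 siRNA against Arkadia siRNA 13 of 25. The targets had a median of 4 isoforms against 3 for all genes entering. At the gene level 9 of 39 were higher and 3 lower at 1.5-fold, with 0 interval-apart. The last count cannot be read in a list of this size, as 0.852% of all members rose and 0.384% fell.

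For exons that are either kept or skipped whole, inclusion can be read from pairs of isoforms. Pairs were taken whose GENCODE 29 transcripts differ by 1 internal exon of exactly the length that separates the deposited isoforms. Inclusion is the FPKM of the isoforms with the exon as a percentage of the pair. Of the target exons that are coding and were less included with ESRP2 siRNA, 4 are shown here as examples, 2 of them (ENAH and ARHGEF11) past 25 points and 2 (EXOC7 and NUMB) short of it, 5′ to 3′ from GENCODE 29, with the letters of GGT and TGG, the DNA form of the GU-rich triplets GGU and UGG, in capitals. Overlapping matches such as TGGT count as both.
ENAH, 63 nt: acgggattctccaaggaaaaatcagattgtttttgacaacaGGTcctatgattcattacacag
ARHGEF11, 120 nt: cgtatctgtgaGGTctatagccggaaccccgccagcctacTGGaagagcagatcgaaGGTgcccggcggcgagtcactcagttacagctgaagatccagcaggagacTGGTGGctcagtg
EXOC7, 93 nt: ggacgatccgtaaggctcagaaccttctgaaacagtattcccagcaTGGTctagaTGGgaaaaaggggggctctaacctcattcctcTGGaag
NUMB, 144 nt: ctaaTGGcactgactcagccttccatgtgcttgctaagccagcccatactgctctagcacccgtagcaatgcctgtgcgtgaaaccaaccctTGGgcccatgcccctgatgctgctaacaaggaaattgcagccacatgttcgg
All 4 are on the minus strand of GRCh38, at chr1:225504991-225505053, chr1:156971697-156971816, chr17:76091143-76091235 and chr14:73279281-73279424, and each is a multiple of 3 in length. They hold 1, 6, 4 and 2 of the triplets.

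The ENAH exon, known as the epithelial exon of this actin regulator, was less included with ESRP2 siRNA. The isoform with it was at 5.12 FPKM in the control, 1.07 FPKM with ESRP2 siRNA and 1.19 FPKM with Arkadia siRNA, and the isoform without it at 12.4, 26.04 and 12.4 FPKM. Inclusion was thus 29.3%, 3.96% and 8.78%, so the control library stood high and the 2 knockdown libraries were both low. ARHGEF11, a guanine nucleotide exchange factor, had its exon at 71.7% in the control, 21.5% with ESRP2 siRNA and 46.9% with Arkadia siRNA, on 8.33, 6.94 and 7.75 FPKM in all. SCRIB, a cell polarity scaffold, had a 75-nt exon at 30.7%, 0.00% and 5.70%, with the isoform that carries it at 5.35 FPKM in the control and near 0 with ESRP2 siRNA. The isoforms of ENAH and ARHGEF11 had overlapping intervals; in SCRIB those of the exon-bearing isoform did not overlap, but its bounds with ESRP2 siRNA are 0 and 0, against 0.351 to 10.5 FPKM in the control.

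EXOC7, a subunit of the exocyst, included its 93-nt exon at 40.5% in the control, 20.1% with ESRP2 siRNA and 33.8% with Arkadia siRNA. Its 69-nt exon stayed at 9.77%, 8.44% and 9.62%. NUMB, an adaptor that restrains Notch, included the 144-nt exon at 49.2%, 30.1% and 60.4%, with the Arkadia library on the other side of the control. Its 33-nt exon was at 37.2%, 28.0% and 25.9%. DNM2, the GTPase dynamin 2, had a 12-nt exon at 23.3%, 1.85% and 0.74%. These intervals overlapped in EXOC7, NUMB and DNM2.

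Other target exons went both ways. A 130-nt exon of ITGA6, the alpha6 integrin subunit, was at 36.8% in the control, 54.7% with ESRP2 siRNA and 10.2% with Arkadia siRNA, on 5.07 and 7.32 FPKM in the first pair. A 93-nt exon of CD46, a complement regulator, was at 29.3%, 51.1% and 52.4%. The 57-nt exon of RAC1 that gives its longer form was at 3.91%, 2.34% and 1.91% on 119 and 265 FPKM in the control and ESRP2 siRNA libraries. The 116-nt exon of MAP3K7 was at 83.4% and 90.8%, and the 147-nt exon of LSR went from 100% to 88.4%, on 0 and 1.35 FPKM of the form that lacks it. Over all 25 target exons measured, inclusion was lower in 13 and higher in 11, and 3 were lower by 25 points or more against 0 higher. Over all 1390 cassette exons described next, 52.7% were lower and 37.7% higher by any amount and 9.14% lower by 25 points, so the target exons were near the rest.

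The targets below were read from the shares of all their isoforms. Among them CTNND1, FGFR1 and LSR also have isoforms that pair by a single exon. TCF7L2, a WNT-pathway transcription factor with 13 isoforms, had a usage change of 0.58 on 10.4 and 7.83 FPKM. In EXOC1 the isoform shorter by 201 nt went from 40.1% to 74.8% (Arkadia siRNA 52.3%). MBNL1, itself an exon regulator, had a change of 0.39 over 7 isoforms, CTNND1 (p120 catenin) 0.39 over 22, GIT2 0.36 and FGFR1 0.33. FGFR2 changed by 0.20, LSR by 0.13 and FGFR3 by 0.11. With Arkadia siRNA against the same control, the changes were larger in CTNND1 (0.42), FGFR2 (0.44), LSR (0.23) and FGFR3 (0.17), and smaller in TCF7L2 (0.43), MBNL1 (0.16), GIT2 (0.28) and FGFR1 (0.18).

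Across all 1390 cassette exons of 1154 genes that reached 5 FPKM per pair in both libraries, 127 (9.14%) were less included with ESRP2 siRNA by 25 points or more and 51 (3.67%) more included. The exons less included came from 124 genes and 47 of them had an isoform with intervals apart, against 10 of those more included. With isoforms whose bounds are 0 and 0 set aside, these were 29 and 7. Relative to Arkadia siRNA, the ESRP2 siRNA library was lower in 127 and higher in 64 of 1298 exons. Between Arkadia siRNA and control the counts were 59 lower and 48 higher of 1338. Of the 127, 86 were also lower by 25 points against Arkadia siRNA. Where the control included an exon at 95% or more, 44 of 395 were lower with ESRP2 siRNA, and where it included it at 5% or less, 6 of 279 were higher. Among the 716 exons between those limits, 83 were lower and 45 higher.

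**Figure D4:**
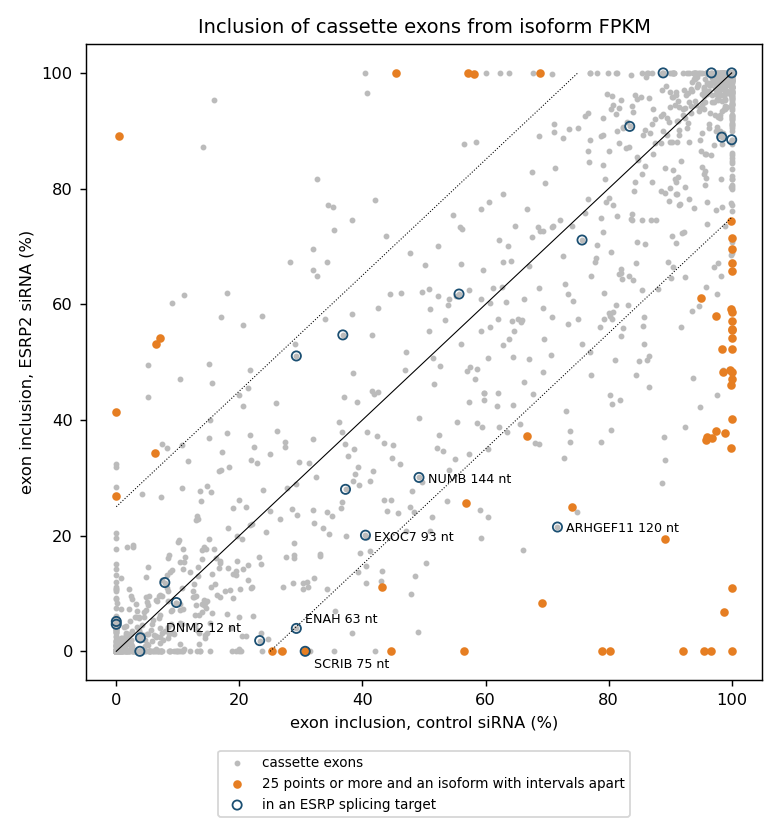
Inclusion of 1390 cassette exons (percent of the isoform pair's FPKM) in the control (x axis) and with ESRP2 siRNA (y axis). Dotted lines mark 25 points. Orange points, which also have an isoform with intervals apart, number 47 below and 10 above the lines, and circles are exons of ESRP splicing targets, of which ARHGEF11, ENAH and SCRIB lie below.

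The 127 exons had a median length of 115 nt and a median GC of 52.0%, against 102 nt and 48.9% for all 1390, and the exons more included 87 nt and 47.6%. Among the exons richest in GC (median 59.1%) 55 of 464 were lower and 18 higher. Among those poorest in GC (median 39.3%) the counts were 30 and 19 of 463. The part of base composition in the counts was not tested beyond this. A GGT or TGG was present in 95.3% of the exons less included, 90.2% of those more included and 88.0% of all, and the median number per 100 nt was 3.17, 3.28 and 3.14. The flanking introns were not analysed here.

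Exons were then ranked by size of change among coding ones with an isoform interval-apart and at least 10 FPKM per pair, a rule set after the values were seen. Of 20 such exons, 19 were less included and 1 more, and 14 rest on an isoform with upper bounds above 0 in both libraries. Some of the 12 largest belong to genes where other isoforms carry most of the FPKM. MCL1, an anti-apoptotic protein, had its 248-nt exon at 95.5% in the control, 0% with ESRP2 siRNA and 97.3% with Arkadia siRNA, but that pair held 35.8% of the gene's FPKM in the control and 8.86% with ESRP2 siRNA. FHL1 and CUX1 had their 187-nt and 138-nt exons at 100% and 96.6% in the control, 0.01% and 0% with ESRP2 siRNA and 100% and 28.7% with Arkadia siRNA. Their pairs held 54.2% and 69.8% of the gene's FPKM in the control and 31.5% and 31.8% with ESRP2 siRNA. In 5 others (CADM1, SCFD1, ATRIP, ARRB2 and NECAP2) the pair held all of the gene's FPKM and the control included the exon at 95.9% or more. Those of the first 4, which rest on upper bounds above 0, are shown in the same way.
CADM1, 84 nt: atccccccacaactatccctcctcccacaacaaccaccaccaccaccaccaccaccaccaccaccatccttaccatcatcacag
SCFD1, 71 nt: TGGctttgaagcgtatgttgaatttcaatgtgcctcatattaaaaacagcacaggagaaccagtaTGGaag
ATRIP, 81 nt: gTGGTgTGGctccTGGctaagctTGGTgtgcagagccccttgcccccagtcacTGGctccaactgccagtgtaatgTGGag
ARRB2, 45 nt: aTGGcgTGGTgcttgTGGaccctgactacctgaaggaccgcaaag
They lie at chr11:115209574-115209657 on the minus strand and chr14:30628209-30628279, chr3:48464582-48464662 and chr17:4716147-4716191 on the plus strand of GRCh38, and hold 0, 2, 8 and 4 of the triplets.

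In CADM1, a cell adhesion molecule, inclusion was 95.9% in the control, 36.6% with ESRP2 siRNA and 89.3% with Arkadia siRNA. The isoform without the exon went from 1.12 to 33.8 FPKM and the one with it from 26.04 to 19.5 FPKM. The CADM1 exon holds a long run of ACC repeats. SCFD1, a factor of ER-to-Golgi transport, was at 96.8%, 36.9% and 76.3%, with the form lacking the exon at 1.17, 56.1 and 6.92 FPKM. ATRIP, the partner of the ATR kinase, was at 96.0%, 37.0% and 71.4%, and ARRB2, beta-arrestin 2, at 98.5%, 52.2% and 89.6%. In all 4 the control was highest, the Arkadia siRNA library somewhat lower and the ESRP2 siRNA library lowest. MTMR14 and ECHDC1, and CDCA7L, CABIN1 and NECAP2, where the form that lacks the exon has bounds of 0 and 0 in the control, showed the same order, from 69.1% to 100% in the control, 43.1% to 91.4% with Arkadia siRNA and 0% to 55.5% with ESRP2 siRNA. CUX1 had this order too, while in FHL1 and MCL1 the Arkadia siRNA library was at or above the control. The order of the 3 libraries is a description of 1 culture each. These exons were picked for a large difference between control and ESRP2 siRNA, so the distance between those libraries follows from the choice. Where the control is near 100%, the Arkadia siRNA library also has little room above it.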

How the data were processed

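The authors deposited gene and isoform FPKM values with lower and upper bounds for 3 libraries, without counts. Per the submitters' processing notes, TopHat2 2.0.10, Bowtie2 2.1.0, Cufflinks 2.1.1, Cuffdiff and build hg19 were used; the level of the bounds is not given in the sources used here. Log2 ratios were computed here with a pseudocount of 1, which understates low genes, in Python with pandas and numpy. With 1 library a group no test was possible. Reads per gene were derived from FPKM, isoform length and the value of 1 read, for single-isoform genes only. Transcript GC content came from GENCODE 29, matched by RefSeq accession for 11639 members and by symbol for 218 (99.0% in all). Coordinates are hg19 for genes and GRCh38 for exons.

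Members and lists were chosen with earlier results of these data known. Named genes are ESRP2, ESRP1 and RNF111; the 15 largest ratios each way with 5 FPKM, 300 nt and intervals apart; up to 4 per list; the 12 largest usage changes with 10 FPKM and an isoform apart; and ESRP targets with a usage change of 0.1 or more. Cassette exons, Arkadia siRNA as the isoform comparator and the demand on upper bounds above 0 were added after seeing the data. The functions were tested on simulated data. Some items that meet these rules are counted but not reported here.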

Additional observations from a re-analysis of the deposited data

How the results depend on the processing

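As deposited, 676 genes were 2-fold higher and 324 lower. The higher count was 323 with a pseudocount of 5, 447 after scaling by the median of ratios, 396 after upper-quartile scaling and 301 with GC decile medians subtracted; the lower count was 610 with a pseudocount of 0.1, 127 with one of 5 and 555 with upper-quartile scaling. These scalings shift log2 ratios without the pseudocount by -0.13 and -0.17, and with it the shift is smaller where FPKM is low. The 102 risen genes became 64 with upper-quartile scaling and 5 with wider intervals (each bound moved out by 0.5 of its distance from the FPKM). The 46 fallen genes became 19 with a pseudocount of 5, 21 at a mean FPKM of 5, 71 and 87 with the scalings and 10 with wider intervals. The 80 genes apart from both other libraries became 50 after the GC subtraction and 4 with wider intervals. The 730 genes of changed usage were 238 at a summed FPKM of 20 and 1236 at 1. They were 261 with an isoform apart as well and 149 if its upper bounds are above 0. Exons less included (127) became 39 at 20 FPKM per pair, 47 with an isoform apart and 29 if its upper bounds are above 0. Those more included (51) became 6, 10, 7 and, if wholly coding, 25. The exon settings and the demand on bounds were chosen after seeing the data. Lists with a median above that of all members numbered 22, and 14 after the GC subtraction. Of the 30 largest rises and falls, 24 were past 2-fold against Arkadia siRNA. STMN3 reversed there, at a log2 ratio of 0.062, from -1.43. No paired analysis was possible because each group has 1 library, and for the same reason no library could be left out. Values of a few reads, such as short genes and isoforms near 0, limit what the depth can show.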
